A study of Sus scrofa with 12 samples.

Results

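The genes described here are 5 components of the complement system (C1R, C1S, C3, C7 and CFB), the soluble inhibitor SERPING1 and the membrane regulators CD46, CD55 and CD59. The genes were chosen with earlier results of these data known. Their probe sets were taken by gene symbol, as every probe set whose single symbol in the array annotation is one of these 9. This gave 18 of the 24123 probe sets on a porcine Affymetrix array, and the 9 genes are among 5079 genes of 1 symbol that were tested. The array was hybridised with ovarian RNA of 12 sows, 1 array each, of an Iberian x Meishan F2 cross killed at 30 days of pregnancy. By estimated breeding value (EBV), 6 sows carry the label higher EBV (HIGH prolificacy) and 6 the label of low prolificacy, and these groups are compared. All 12 animals share the cross and the day of pregnancy, no treatment or age is named, and each sample is described as averaged over both ovaries of the sow. Sows are called by group and number, so that low 4 is animal 4 of the low prolificacy group.

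Complement is a cascade of plasma proteins that tags and lyses target cells. In the classical pathway the protease C1r activates C1s, which starts the steps that lead to cleavage of C3, where all pathways meet. CFB supplies the catalytic part of the alternative pathway's C3-cleaving enzyme, and C7 lets the terminal complex attach to membranes. SERPING1, the C1 inhibitor, inactivates C1r and C1s. Host cells protect themselves with CD46, a cofactor for breakdown of deposited C3 and C4 fragments, CD55, which speeds the decay of the C3-cleaving enzymes, and CD59, which blocks the last step of the lytic pore. The liver makes most plasma complement, and fibroblasts, macrophages and endothelial cells also transcribe several of these genes. Complement proteins are also known from ovarian follicular fluid.

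Values are log2 expression per probe set. Probe sets of 1 gene are called by their order of mean brightness. A probe set was tested when it exceeded 4 in at least 6 of the 12 sows, which 16 of the 18 member probe sets did. The 2 others, of CFB and CD55, are given as values only. Array medians lay between 4.81 and 4.97, rank correlations between sows between 0.974 and 0.993, and high 3 and high 2 had the lowest mean rank correlation with the other sows, 0.981 and 0.982. Of 9 luteal markers listed 8 were on the array and all 8 were above 4 in every sow. Of 13 lymphocyte markers, 10 were on the array and none was above 4 in any sow, while 7 of the 9 macrophage markers on the array were tested. In bulk tissue, fewer cells of a type and less RNA per cell cannot be told apart. Albumin (ALB), which defines hepatocytes, stood at 12.61 in low 1, 12.40 in low 4, 8.80 in low 3 and 8.67 in high 5, and between 2.04 and 3.33 in the other 8 sows. Of the 18 probe sets of 16 liver genes, all were above 4 in low 1 and low 4, 7 in low 3 and in high 5, and 2 or 3 in each other sow.

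Among the probe sets tested, the brightest of CD55 had the widest gap between the groups. All 5 CD55 probe sets were higher on average in high prolificacy sows, but none passed the adjusted threshold. CD59 also had higher means in the high group, while C1R, C1S, SERPING1, C3 and the brightest CD46 probe set had lower ones, all by less than 0.25. CFB was near the floor of the array in most sows, and its second probe set, which was not tested, was high in low 1 and low 4, so that its means differed by -1.56. With limma and Benjamini-Hochberg adjustment over all 13390 probe sets tested, 0 of 16 member probe sets passed an adjusted p of 0.05, where 0% of all probe sets did. The adjusted p of the 16 members ran from 0.835 to 0.99. At an unadjusted limma p under 0.05 there were 2 member probe sets, both of CD55 and both higher in the high group, where 5.64% of all probe sets passed in either direction and 2.26% as higher. The 2 read the same gene and are not independent. Among the members tested 9 probe sets were higher and 7 lower, with a median difference of 0.13, and over all probe sets tested 47.6% were higher, with a median of -0.010. The median size of a difference was 0.25 for the members and 0.12 over all probe sets tested. The groups overlapped in every member probe set, where 0.471% of all probe sets had groups that did not.

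**Figure D1:**
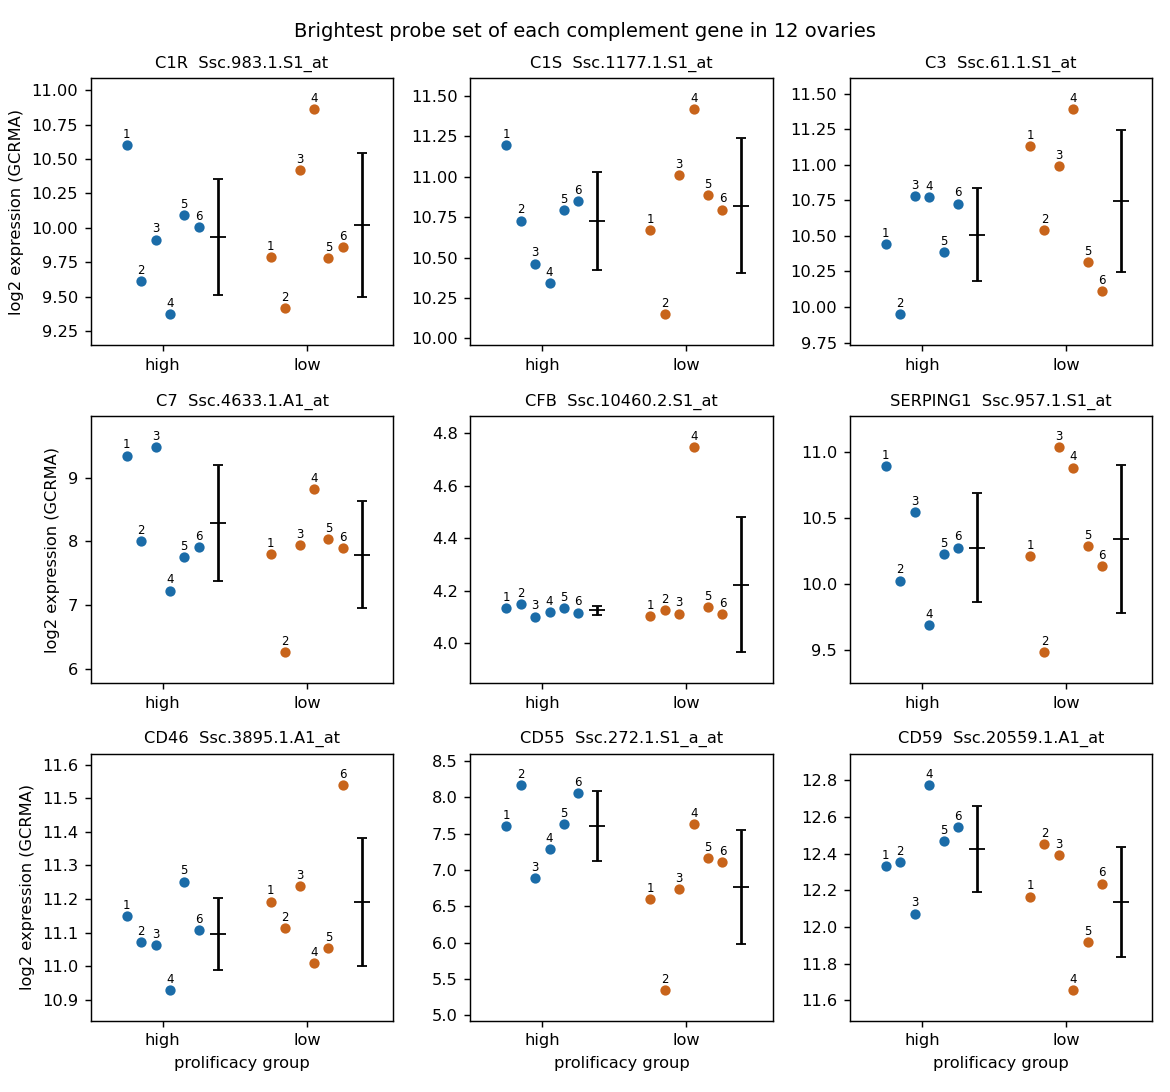
Log2 expression (GCRMA) of the brightest probe set of each of the 9 genes in 12 ovaries. Points are sows, labelled by number, and the bar at the right of each group gives mean ± SD (n = 6); scales differ between panels. The groups overlap in every panel, and the CFB panel is flat at about 4.1 apart from low 4 at 4.75.

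C1R, the protease that starts the classical pathway, was read by 1 probe set. In high prolificacy sows it ran from 9.37 in high 4 through a median of 9.96 to 10.60 in high 1, and in low prolificacy sows from 9.41 in low 2 through 9.83 to 10.86 in low 4. The highest and the lowest sow of each group thus covered nearly the same span. The mean was 9.93 ± 0.42 (SD, n = 6) against 10.02 ± 0.52 (n = 6), a difference of -0.089 with a 95% interval of -0.64 to 0.46 and a limma adjusted p of 0.989.

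C1S, the protease that C1R activates, lies next to C1R in the RefSeq annotation of the Sscrofa11.1 assembly, and was also read by 1 probe set. It ran from 10.34 in high 4 through a median of 10.76 to 11.20 in high 1, and in the low group from 10.15 in low 2 through 10.84 to 11.42 in low 4. The same sows marked the ends as for C1R in both groups. The difference was -0.093 (95% interval -0.52 to 0.34, limma adjusted p = 0.985), from 10.73 ± 0.30 against 10.82 ± 0.42.

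SERPING1, the inhibitor of both proteases, followed the same sows in its single probe set. Values went from 9.69 in high 4 through a median of 10.25 to 10.89 in high 1, and from 9.48 in low 2 through 10.25 to 11.04 in low 3, with low 4 next at 10.88. The medians of the groups were alike, and the difference was -0.065 (95% interval -0.64 to 0.51, limma adjusted p = 0.99). For C1R, C1S and SERPING1 the sign of the group difference turned in several alternatives. Without the 4 sows of highest albumin, of which 3 are low prolificacy sows, the differences were 0.22, 0.11 and 0.32, and without low 4 alone they were 0.080, 0.026 and 0.044.

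C7, the terminal component that anchors the lytic complex, had 2 probe sets with a wide spread between sows. In the brighter high 3 stood at 9.48 and high 1 at 9.35, above every low sow, while the other 4 high sows started at 7.23 and stayed under low 5 at 8.03. In the low group it ran from 6.26 in low 2 through a median of 7.92 to 8.82 in low 4. The lowest and the highest sow thus differed 9.34-fold, and 96.3% of the probe sets tested had a smaller SD over the 12 sows. The second probe set spanned 4.89 in high 4 to 9.09 in high 3, an 18.4-fold range that 99.0% of probe sets did not reach by SD. The 2 probe sets followed each other at r = 0.920 over the 12 sows, a description of 2 readings of the same RNA. The group differences were 0.50 (95% interval -0.49 to 1.48, limma adjusted p = 0.934) and 0.17 (-1.31 to 1.65, limma adjusted p = 0.99). They rest on few sows, being 0.26 and -0.24 without high 3, 0.28 and -0.15 without high 1, and 0.19 and -0.14 without low 2. The actin controls read one transcript at its 3' and 5' ends, and their gap widens when RNA is degraded. Their names appeared displaced and were moved before use, so which probe sets they are was inferred. With the actin gap in the model the C7 differences were 1.13 and 1.49 (limma adjusted p = 0.305 and 0.283). In that model 1040 of all 13390 probe sets tested were higher and 1138 lower at an unadjusted limma p under 0.05. Without the gap these counts were 303 and 452. The actin gap was larger in the high group, at 2.59 ± 0.45 against 2.12 ± 0.13.

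C1R, C1S and SERPING1, and C7 with SERPING1, varied together from sow to sow in both groups. Taking each gene's brightest probe set, the 12 sows gave r = 0.908 and Spearman's rho = 0.846 for C1R with SERPING1 (permutation p = 7e-05, adjusted p = 0.00315 over 90 relations). For C1R with C1S r was 0.900 and rho 0.797 (permutation p = 0.00012, adjusted p = 0.0036). For C1S with SERPING1 r was 0.829 and rho 0.790 (permutation p = 0.00107, adjusted p = 0.0241), and for C7 with SERPING1 r was 0.780 and rho 0.748 (permutation p = 0.00324, adjusted p = 0.0417, but 0.0586 for rho). The 90 relations were 36 pairs of member genes and the 9 members against 6 other measures. Within the high group alone r was 0.919, 0.865, 0.700 and 0.894 for these 4 pairs in the order given, and within the low group 0.903, 0.922, 0.898 and 0.827. With 6 sows none of these within-group values passed adjusted over the 90 relations in an exact permutation test. Without the 2 sows farthest from the median of the first gene r was 0.913, 0.780, 0.703 and 0.743. Adjusted over the 90 relations, C1R with SERPING1 then still passed (permutation, adjusted p = 0.0495) and the other 3 pairs did not, at 0.139, 0.209 and 0.139. The number of sows fell to 10 at the same time, and which of these ended the calls was not tested. Low 2, the lowest sow for C1S, SERPING1 and C7, lowered r of C7 with SERPING1 to 0.667 and of C1S with SERPING1 to 0.752 when it was left out.

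**Figure D2:**
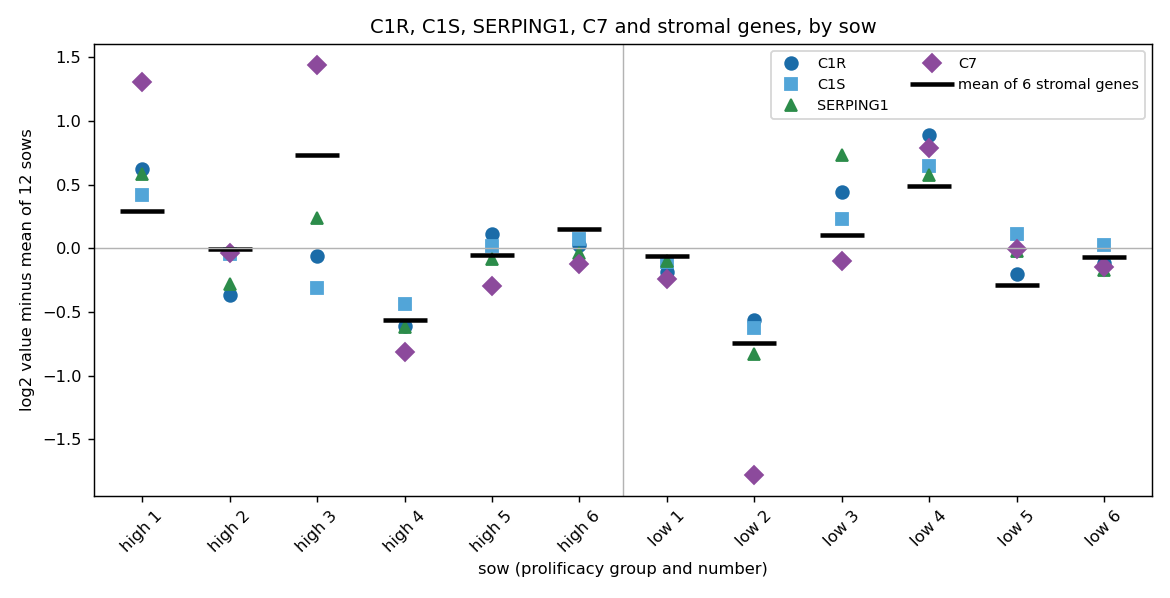
Log2 value minus the mean of 12 sows for C1R, C1S, SERPING1 and C7 (brightest probe set each), with the mean over 6 stromal genes as a black bar, for each sow of the high (left) and low (right) group. High 4 and low 2 lie below 0 for all 4 genes, high 1 and low 4 above 0, and high 3 is high for C7 but below 0 for C1R and C1S.

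The mean of a list of connective tissue markers moved with C7 and SERPING1, but not every gene of the list did. LUM was lowest in low 3 at 9.23, the sow highest for SERPING1. PDGFRB was 11.62 in high 4, the lowest high sow for C7, and 11.35 in high 1. Relations of single markers were not computed. The stromal list (COL1A2, DCN, LUM, PDGFRB, THY1 and FBLN1 tested, of 9 listed) was added to the relations after the co-varying genes had been seen. Its mean, centred per gene, spanned -0.56 to 0.74 over high prolificacy sows and -0.74 to 0.49 over low prolificacy sows. C7 followed it at r = 0.915 and rho = 0.790 (permutation p = 7e-05, adjusted p = 0.00315) and SERPING1 at r = 0.791 and rho = 0.748 (permutation p = 0.0024, adjusted p = 0.0405, but 0.0586 for rho). C7 ran opposite to the mean of 8 luteal genes, at r = -0.797 and rho = -0.776 (permutation p = 0.0027, adjusted p = 0.0405). Without the 2 sows farthest from the median of C7 or SERPING1 these values were 0.795, 0.796 and -0.771, each with a permutation adjusted p of 0.139. Within the high group they were 0.900, 0.804 and -0.886 and within the low group 0.922, 0.880 and -0.834. SERPING1 with the luteal mean gave r = -0.727 (permutation, adjusted p = 0.0680) and rho = -0.909 (adjusted p = 0.0081), and C1R with it r = -0.613 (adjusted p = 0.199) and rho = -0.811 (adjusted p = 0.0477), so that both passed by rho and not by r. C1R followed the stromal mean at r = 0.702 (permutation p = 0.0110, adjusted p = 0.0992) and rho = 0.776 (adjusted p = 0.0477), again past the threshold by rho alone. C1S followed it at r = 0.582 (permutation p = 0.0463, adjusted p = 0.223) and rho = 0.517 (adjusted p = 0.308). The part of tissue makeup in these relations was not tested.

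By the likeness rule, the 3 genes of highest Pearson r over the 12 sows were sought among 6640 probe sets of other genes, as a description with no test. C7 was most like NLN (r = 0.958), the neuronal growth suppressor NDN (0.948) and IK (0.937). SERPING1 was most like MTMR11 (0.945), the ribosomal protein gene RPL7 (0.933) and MCMBP (0.924), a binding partner of the replicative helicase. MCMBP also led for C1R (0.943), ahead of LOC100152407 (0.889) and the vesicle coat gene SEC31A (0.862). It was second for C1S (0.884), between the stromal chemokine CXCL12 (0.898) and SRP19 (0.852), of the signal recognition particle. MCMBP stood in the leading 3 of all 3 genes of the C1 step, and its own values covered only 9.25 to 9.70. Since these 3 genes followed each other over the same sows, a shared neighbour is no separate result. The closest genes of C3 were ALAD (0.866), DCTD (0.811) and INPP5A (0.784).

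**Figure D3:**
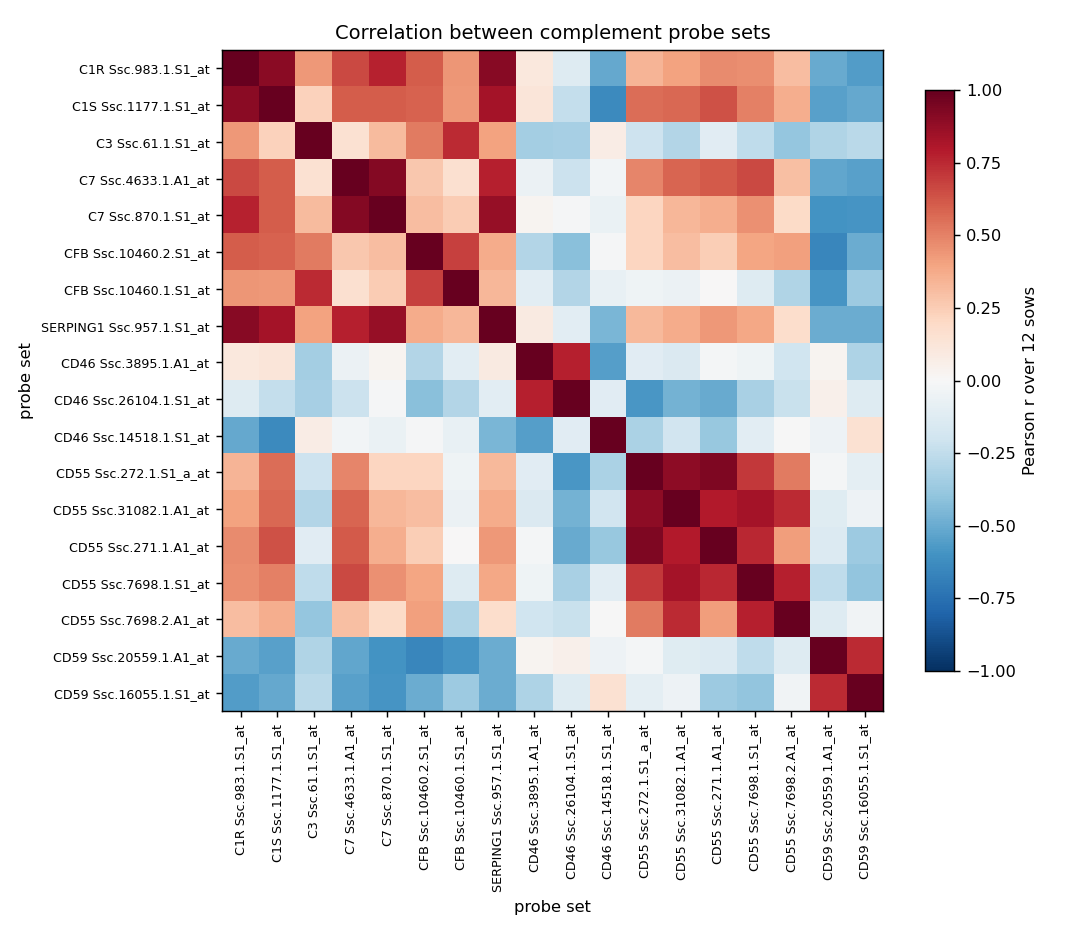
Pearson r over 12 sows between all 18 probe sets of the 9 genes, from blue (-1) to red (1). C1R, C1S, C7 and SERPING1 are red with each other, the 5 CD55 probe sets form a red block, and both CD59 probe sets are blue against C1R, C1S, C7 and SERPING1.

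C3, the protein on which all activation routes converge, had its 3 highest values in low prolificacy sows. The low group ran from 10.11 in low 6 through a median of 10.77 to 11.39 in low 4, with 11.13 in low 1 and 10.99 in low 3, and the high group from 9.95 in high 2 through 10.59 to 10.78 in high 3. The 3 sows at the top are the 3 low sows with high albumin, and high 5, the other sow with albumin above 4, stood at 10.38. The mean was 10.51 ± 0.32 against 10.75 ± 0.50, a difference of -0.24 (95% interval -0.73 to 0.25, limma adjusted p = 0.937). Without the 4 sows of highest albumin the difference was 0.21, and with albumin as a covariate it was -0.016. Since sows fell into separate clusters of albumin, no correlation with it is given. The same clusters limit the fit with albumin as a covariate, since 3 of the 4 sows of high albumin are low prolificacy sows.

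CFB, the protease of the alternative pathway, was read by 2 probe sets of which neither gave a graded signal. The one tested stood between 4.10 and 4.15 in 11 sows and at 4.75 in low 4. The other was above 4 in 2 sows only, at 7.15 in low 4 and 6.69 in low 1. It stood at 3.44 in low 3 and between 2.56 and 2.71 in the other 9 sows, high 5 among them at 2.67. Low 4 and low 1 are also the sows of highest albumin, and low 3 follows in both. The difference of the tested probe set, -0.098 (limma adjusted p = 0.95), was 0.0070 without low 4. The relations of CFB across sows rest on low 4 and are not read.

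Of other complement genes that the liver makes, some stood out in the same sows and some did not. VTN, the pore inhibitor vitronectin, was 9.05 in low 1, 8.18 in low 4 and 5.24 in low 3, and between 3.13 and 3.38 in the other 9 sows. C5, which starts the terminal pathway, was 5.97 in low 4, 5.42 in low 1 and 3.20 in low 3, and at most 2.75 elsewhere. C2, which lies beside CFB in the RefSeq annotation of Sscrofa11.1, did not share this pattern, at 3.91 in low 4, 3.49 in low 1 and 4.48 in low 5. MBL2 was flat, at 2.27 in low 1 and 2.28 in low 4, and C4A was 12.09 in low 4 but 11.47 in low 1. The brighter C9 probe set was highest in high 2 at 8.36, and the other in low 4 at 2.98. C8G and C4BPB, under 4 in every sow, were highest in low 4 (3.35 and 2.80) and next in low 1 (2.37 and 2.79). Also under 4, CPN1 was 2.94 in low 4 but 2.16 in low 1, and C8A 2.39 in low 1 but 2.13 in low 4. C8G and CPN1 are given by their brighter probe set. The part of liver RNA in the CFB and C3 values was not tested.

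**Figure D4:**
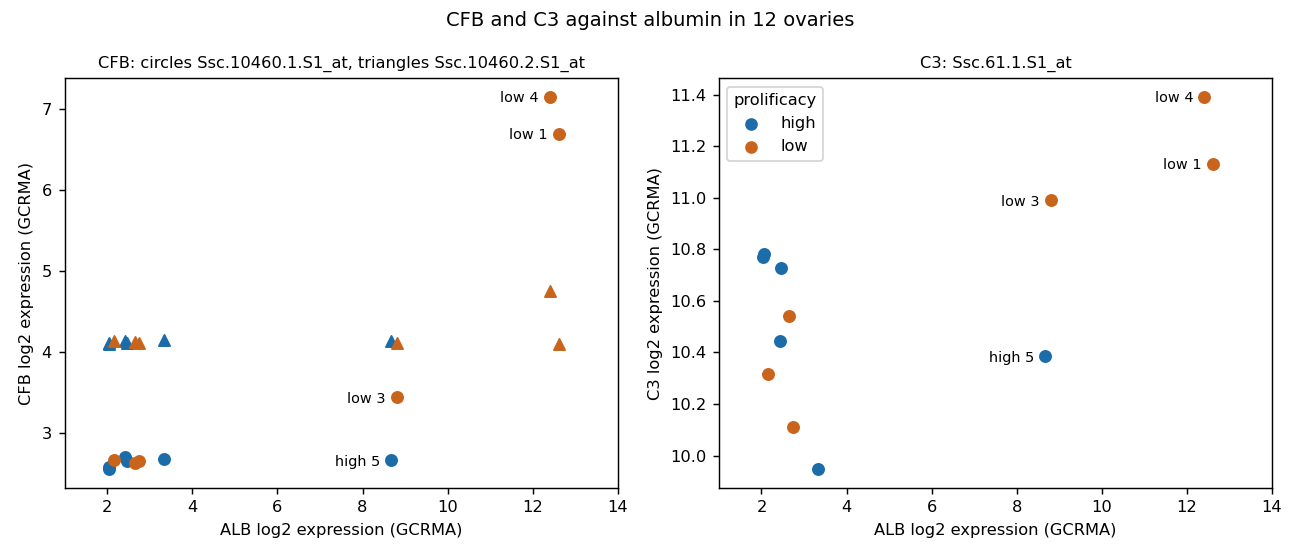
CFB (left, both probe sets) and C3 (right) against albumin (ALB), log2 expression (GCRMA), 1 point per sow and probe set, coloured by prolificacy group. Low 1 and low 4 combine the highest albumin with the highest CFB in the probe set drawn as circles (6.69 and 7.15) and the highest C3 (11.13 and 11.39), and high 5 does not.

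CD55, the decay-accelerating factor, was higher on average in high prolificacy sows in all 5 of its probe sets. In the brightest the high group ran from 6.88 in high 3 through a median of 7.61 to 8.17 in high 2, and the low group from 5.35 in low 2 through 6.92 to 7.63 in low 4. All 6 high sows lay above the low group's mean, 5 of 6 low sows lay below the high group's mean, and high 2 and high 6 lay above every low sow. The mean was 7.60 ± 0.48 against 6.76 ± 0.78 (n = 6 each), a difference of 0.84 (1.79-fold) with a 95% interval of 0.10 to 1.57. The limma adjusted p was 0.835 (unadjusted 0.0287, exact permutation p = 0.0390, two-sided).

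The other CD55 probe sets gave differences of 0.75 in the second (limma adjusted p = 0.860), 0.81 in the third (0.874) and 0.50 in the fourth (0.874). The fifth was above 4 in 3 sows, with means of 3.96 and 3.69, and was not tested. In the third low 2 stood at 3.96 and the other low sows between 5.39 and 6.65, against 5.94 to 6.88 in the high group. In the second probe set the groups spanned 5.93 to 7.39 and 4.70 to 6.69, with high 2 and high 1 above every low sow. The probe sets read 1 gene in the same RNA and are no replicates of each other, and their r over the 12 sows ran from 0.417 to 0.935. The mean of the 4 tested gave a difference of 0.72 (limma adjusted p = 0.835).

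**Figure D5:**
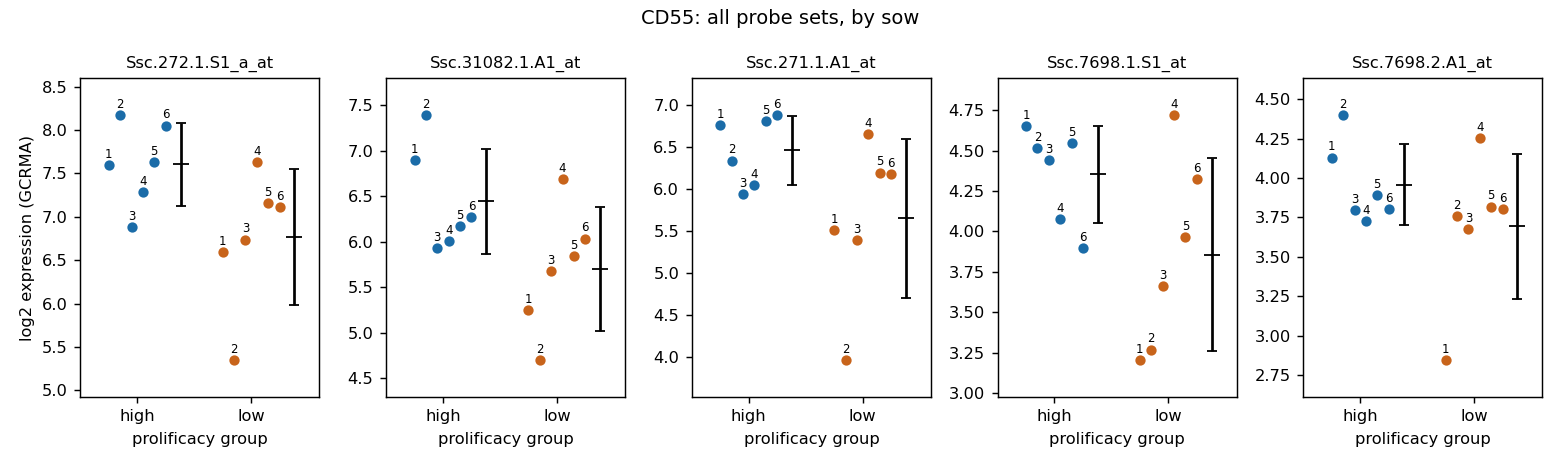
Log2 expression (GCRMA) of CD55 in its 5 probe sets, from the brightest on the left. Points are sows, labelled by number, with mean ± SD (n = 6) at the right of each group; scales differ between panels. The high group has the higher mean in every panel and the groups overlap in every panel, with low 2 lowest in the first 3.

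In the 3 brightest probe sets the CD55 difference was smaller without low 2 and with the actin gap in the model, and larger without the 4 sows of highest albumin. In the fourth it was 0.38, 0.52 and 0.46 in these alternatives, against 0.50 with all sows. Without low 2 the differences of the 3 brightest probe sets were 0.56, 0.55 and 0.47, and with the actin gap they were 0.51, 0.44 and 0.74. With animal number as a block the unadjusted limma p of the brightest was 0.054 (adjusted p = 0.970). Without the 4 sows of highest albumin they were 1.06, 0.97 and 0.95. The sign stayed the same in every alternative run for the 4 CD55 probe sets tested. CD55 followed the mean of 16 interferon-responsive genes at r = 0.705 and rho = 0.769 (permutation p = 0.0068, adjusted p = 0.0680 for r and 0.0477 for rho, which passed), and at r = 0.763 without high 2 and low 2. Within the groups r was 0.607 and 0.704. With values centred on group means r was 0.614, which did not pass (permutation, adjusted p = 0.121). The relation was not particular to CD55. C1S and C1R followed the same mean at r = 0.655 and 0.618, neither past the threshold (permutation, adjusted p = 0.149 and 0.199). Centred on group means these were 0.807 and 0.743, and both passed (permutation, adjusted p = 0.0145 and 0.0390). All 16 interferon-responsive genes had higher means in high prolificacy sows, where 47.6% of all probe sets tested did. Of the 16, 0 passed the limma adjusted threshold and 2 had an unadjusted limma p under 0.05. Their centred mean was 0.32 against -0.32. The groups overlapped, with sows from -0.86 to 1.18 in the high and -0.95 to 0.59 in the low group. CD55 followed the actin gap at r = 0.588 and rho = 0.636 (permutation p = 0.0496, adjusted p = 0.223). The part of interferon response or RNA integrity in the CD55 difference was not tested. Nearest to CD55 in pattern were WDFY1 (r = 0.890), the chromatin factor KMT2E (0.882) and the matrix protein gene EGFLAM (0.854), which itself differed by 0.84 between the groups.

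CD59, which blocks the lytic pore, was read by 2 probe sets, and the share of probe sets tested with a smaller SD was 52.7% for the brightest and 84.6% for the second. In the brightest the high group ran from 12.07 in high 3 through a median of 12.41 to 12.77 in high 4, and the low group from 11.66 in low 4 through 12.20 to 12.45 in low 2. High 4, high 6 and high 5 lay above every low sow, and low 4 and low 5 below every high sow. The difference was 0.29 (95% interval -0.05 to 0.62, limma adjusted p = 0.888) and 0.33 in the second probe set (limma adjusted p = 0.929). The second became -0.068 with the actin gap in the model. High 4, the highest sow for CD59, was the lowest high sow for C1R, C1S, SERPING1 and C7, and low 4 was lowest for CD59 and highest for C1R and C1S. High 6 and high 5, next highest for CD59, were not low for C1R, both above its median over the 12 sows of 9.89. Over the 12 sows r with C1R, C1S, C7 and SERPING1 was -0.505, -0.540, -0.521 and -0.495, none past the threshold (permutation, adjusted p = 0.269 to 0.290). For CD59 with C7 r was -0.872 within the high and -0.780 within the low group, neither past the adjusted threshold. With values centred on group means it was -0.811, which passed (permutation, adjusted p = 0.0145). The pair did not pass by rho (-0.664, permutation, adjusted p = 0.142). Nor did it pass without high 3 and low 2 (r = -0.527, permutation, adjusted p = 0.483). HSD11B2, which inactivates cortisol, was most like CD59 (r = 0.891), followed by MSRA (0.856) and CSNK1D (0.853).

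CD46, the cofactor for C3 breakdown, was the steadiest member. Its brightest probe set stayed between 10.93 and 11.25 in the high and between 11.01 and 11.54 in the low group, with low 6 at the top, and only 11.1% of probe sets tested had a smaller SD. The difference of the brightest was -0.096 (95% interval -0.32 to 0.13, limma adjusted p = 0.946). The second probe set differed by -0.26 (limma adjusted p = 0.919), with all 6 high sows below the low group's mean. The third differed by 0.093 (limma adjusted p = 0.975), with a sign that turned without high 3. The probe sets disagreed on the order of sows: the first 2 followed each other at r = 0.778, while the third ran at -0.552 against the first and -0.117 against the second. Genes most like CD46 were KLHL42 (0.770), the muscle tropomyosin TPM2 (0.765) and UFSP2 (0.739).

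Other genes of the pathway gave no call either, read by their brightest probe set. Of 52 further complement genes listed by role, 25 were on the array by symbol and 12 were tested, of which 0 passed the limma adjusted threshold, 0 had an unadjusted p under 0.05, 4 were higher and 8 lower in high prolificacy sows. Their median difference was -0.12, against -0.010 over all probe sets tested. In the classical and lectin pathways C1QA and C1QC, subunits of the recognition molecule C1q, differed by 0.30 and 0.20, the lectin FCN2 by -0.37 and C4A, the C4 component cleaved by C1s, by -0.10. Alternative pathway CFD, the protease that cuts CFB, differed by -0.11, and C9, which forms the pore, by -0.50. Among soluble regulators C4BPA, which lies beside CD55 in the RefSeq annotation of Sscrofa11.1, differed by 0.41 and CLU by -0.23. THBD, of the membrane regulators, differed by 0.11, and the receptors CD93, ITGB2 and VSIG4 by -0.59, -0.17 and -0.13. Under the filter lay C2, MBL2, FCN1, CFP, C5, C8A, C8B, C8G, C4BPB, VTN, CPN1, CR1 and ITGAM. C4A stood at 11.22 to 12.09 over the 12 sows and C4BPA at 9.40 to 11.15, whereas the C8 subunits and MBL2 stayed under 4 in every sow.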

How the data were processed

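Per the labels, RNA of frozen ovary was biotin-labelled as cRNA and hybridised to Affymetrix porcine arrays. The submitters' processing notes name GCOS and GCRMA, which corrects background, normalizes and summarises probe sets; no version or setting is named there. Values deposited by the authors are log2 expression, a scale inferred from the range 0.97 to 15.34. GCRMA compresses differences near its floor. The number of sows limits precision.

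Probe sets were named from the platform annotation, with 10099 of 24123 holding 1 symbol. The 124 control probe sets were left out. Names in a block of 62 porcine controls appeared displaced and were moved by 21 places before the actin difference was taken. The displacement was inferred, and all values that use the actin gap rest on it. High and low prolificacy were compared with limma 3.58.1 (lmFit, eBayes; R 4.3.3), without covariates, two-sided, with Benjamini-Hochberg adjustment over 13390 probe sets. Correlations used 100000 permutations, and exact permutation within a group. The group comparison was tested on simulated data with 13390 probe sets: of 100 shifted by 1, 76 were called, of 100 shifted by 2, 98, with 11 false calls. Each probe set was drawn independently from a normal distribution, so correlation between probe sets was not simulated. These rates need not hold for the measured data.

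The labels number animals 1 to 6 in each group but name no pairs or batches, nor related animals. Alternatives were filters, scaling, covariates, a block, array weights and leaving out sows. All member probe sets are named; other complement genes are up to 4 per role by smallest p and each one under the filter, and like genes the 3 of highest r. Members and lists were chosen with earlier results of these data known. FCN2, CR1, C9, VTN, C5, C8A, C8G, C4BPB and CPN1 values by sow were singled out after their values were seen.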

Additional observations from a re-analysis of the deposited data

Results flagged for a closer look

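Each of 18 probe sets was examined in both groups of 6 sows, 36 in all, for a sow far from the other 5 by Dixon's criterion, and 1 value stood apart. CFB in its brighter probe set was 4.75 in low 4, against 4.10 to 4.14 in the other low sows, a gap of 0.947 of the group's range. Chance alone carries a sow past the criterion in about 5% of groups.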

How the results depend on the processing

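Under 24 alternative settings 0 member probe sets and 0 other complement genes passed the limma adjusted threshold, with a smallest adjusted p of 0.283 and 0.183. Over all probe sets the count was 0 to 1 when each sow was left out, the 1 being without low 1. The replicate block (animal number) also gave 0 calls and left every difference as it was (CD55 0.84, adjusted p = 0.970); numbers were not taken as pairs, since 2 of 6 same-numbered pairs had a correlation over 0.1 and 1 sow was closest to its own number. Of the 16 member probe sets tested, 8 kept their sign in every alternative and 8 did not. Signs turned without the 4 sows of highest albumin for C1R (0.22), C1S (0.11), C3 (0.21) and SERPING1 (0.32), and with albumin as covariate for C1R (0.11), C1S (0.038) and SERPING1 (0.11). The separate clusters of albumin, uneven between the groups, limit the fit with it as covariate. With the actin gap as covariate signs turned for C1R (0.21), C3 (0.014), SERPING1 (0.28) and the second CD59 probe set (-0.068). Without high 2 and high 3, the second C7 probe set was -0.16 and the third of CD46 -0.042, and the second of C7 was -0.21 with array weights. With 1 sow left out C1R ran from -0.22 to 0.080, C1S from -0.23 to 0.026, SERPING1 from -0.24 to 0.075, the second C7 probe set from -0.24 to 0.60, the brighter CFB from -0.12 to 0.0070 and the third of CD46 from -0.0011 to 0.17. The causes were not tested. Of 90 relations 7 passed, 9 with Spearman's rho, 8 after quantile normalization, 15 with values centred on group means, 1 without the 2 farthest sows and 0 within either group of 6, where fewer sows raise the smallest attainable p.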

Other observations

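FCN2, a ficolin that starts the lectin pathway, split the sows of both groups into high and low values, and was singled out after its values were seen. It stood at 7.31 in high 1, 6.82 in high 6 and 6.28 in high 3, and at 7.68 in low 3, 7.08 in low 1 and 6.81 in low 6. The other 6 sows lay between 2.31 and 3.42. These sows are not those with high albumin alone, since low 4 stood at 3.42 and high 5 at 2.31.

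CR1, the receptor for deposited C3 fragments, was above 4 in 3 sows, at 5.08 in high 2, 4.90 in low 4 and 4.72 in high 1, and between 2.86 and 3.33 in the other 9. In the brighter C9 probe set high 3 stood at 3.80 and every other sow between 6.09 and 8.36. The other C9 probe set stayed under 4 in every sow, between 2.67 and 2.98, and high 3 did not stand apart there, at 2.72. The group difference of -0.50 given for C9 is that of the brighter probe set and includes high 3.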
